A study of Mus musculus with 14 samples.

Results

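A set of 9 genes used as markers of interstitial and monocyte-derived macrophages of the lung was followed in RNA from sorted cells of mouse lung tumors. The set was a list of names (Csf1r, Adgre1, C1qa, C1qb, C1qc, Cx3cr1, Apoe, Trem2 and Ly6c2), chosen as known markers by name, with earlier results of these data known. All 9 were found among the 52550 genes in the table, and all 9 passed the expression filter that left 16836 genes for testing. The tumors came from KPY mice of a mixed B6J/129S4vJae background, which carry Cre-dependent tumor alleles, floxed Trp53 on both chromosomes among them, and a Cre-activated yellow fluorescent protein (YFP) at Rosa26. A lentivirus that carries Cre, Cas9 and a guide RNA was given into the airway of every animal. The guide targeted β-galactosidase as a control in the 6 KPY-Ctrl tumors, and the histone methyltransferase gene Setd2 in the 8 KPY-Setd2KO tumors. The tumor alleles with loss of p53, YFP, Cas9 and Cre were therefore shared by both groups, and the guide alone set them apart. The cell type in which the virus expressed Cre is not given in the sources used here, and for age the study states an upper limit at tumor initiation only, not a value for each mouse. Single tumors were dissected, digested and sorted for live YFP-positive cells; removal of CD45-positive blood cells is described for the dye measurements of the study and is not stated for the RNA sort. The labels describe RNA from cell lines instead, and this conflict was not resolved. The study reports fewer mice than tumors in both groups. The mouse of each tumor is not recorded, and the tests took tumors to be independent.

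The lung holds several kinds of macrophage. Alveolar macrophages live in the air spaces, while interstitial macrophages lie in the tissue and are renewed in part by blood monocytes. Csf1r is the receptor for the growth factors CSF1 and IL-34 on which most macrophages depend, and Adgre1 encodes the F4/80 antigen of mouse macrophages. C1qa, C1qb and C1qc encode the 3 chains of C1q, which starts the classical complement pathway and is made largely by tissue macrophages. Cx3cr1 is the receptor for fractalkine, Trem2 is a lipid-sensing receptor that signals through Tyrobp, Apoe encodes a lipid-carrying protein that can be a ligand of Trem2, and Ly6c2 encodes a surface protein of classical monocytes. Apoe and Ly6c2 are not restricted to macrophages, since epithelial cells can express Apoe and other cell types express Ly6 genes. Csf1r and Adgre1 are genes of macrophages broadly and do not single out interstitial ones. In these tumors Csf1r, Adgre1 and Trem2 were high where genes of alveolar macrophages were high, as given below.

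Promoter windows were read from RefSeq (GRCm38.p6) for 6 of the 9 genes, each with 250 bases before the start site and 50 after it. No window was found for Adgre1 and C1qa, and Csf1r was left out of the search by hand. Shown are the windows of C1qb, on the reverse strand at chr4:136886151-136886450, and C1qc, on the reverse strand at chr4:136892865-136893164, because these neighbouring genes moved together over the tumors, with those of Trem2, on the forward strand at chr17:48346151-48346450, and Ly6c2, on the reverse strand at chr15:75111922-75112221, which followed other patterns. The letters GAGGAA or their reverse complement TTCCTC, the core that the myeloid factor PU.1 recognizes, are in capitals. They were chosen after the windows had been read, and were searched on both strands.
C1qb: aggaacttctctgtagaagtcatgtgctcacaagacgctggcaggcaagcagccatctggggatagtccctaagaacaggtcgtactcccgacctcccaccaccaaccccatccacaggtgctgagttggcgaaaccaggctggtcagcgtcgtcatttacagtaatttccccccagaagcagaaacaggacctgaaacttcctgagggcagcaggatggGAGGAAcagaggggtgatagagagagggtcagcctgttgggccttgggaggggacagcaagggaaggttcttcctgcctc
C1qc: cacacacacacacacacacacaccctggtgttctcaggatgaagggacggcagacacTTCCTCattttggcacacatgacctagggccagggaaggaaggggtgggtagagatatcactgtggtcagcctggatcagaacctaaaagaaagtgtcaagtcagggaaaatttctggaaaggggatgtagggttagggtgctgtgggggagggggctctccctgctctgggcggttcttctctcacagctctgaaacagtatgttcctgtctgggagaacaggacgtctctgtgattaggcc
Trem2: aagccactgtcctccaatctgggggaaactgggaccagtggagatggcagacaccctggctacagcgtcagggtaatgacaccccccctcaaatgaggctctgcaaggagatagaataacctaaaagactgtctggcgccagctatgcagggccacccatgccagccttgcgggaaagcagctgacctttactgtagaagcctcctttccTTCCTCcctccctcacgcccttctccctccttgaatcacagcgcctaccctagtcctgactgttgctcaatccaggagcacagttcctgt
Ly6c2: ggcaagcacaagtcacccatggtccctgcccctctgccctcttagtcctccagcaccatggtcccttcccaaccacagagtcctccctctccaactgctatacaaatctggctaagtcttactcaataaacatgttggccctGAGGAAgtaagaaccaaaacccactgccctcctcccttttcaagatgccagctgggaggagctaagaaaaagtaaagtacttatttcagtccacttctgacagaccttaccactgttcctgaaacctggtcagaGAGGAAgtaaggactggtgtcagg
The letters were present in 5 of the 6 windows, all but that of Cx3cr1. Of 32851 promoter windows of the same length, 9289 (28.3%) held them. Since the letters were chosen after the windows of these genes had been read, and Csf1r was left out, this comparison cannot test an enrichment. A match describes the letters and is not a measured binding site.

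Total estimated counts were 27866266 to 51828846 in the KPY-Ctrl tumors and 20072236 to 40604404 in the KPY-Setd2KO tumors. Values are given as CPM (the count of a gene scaled to a common library size) after TMM normalization, which allows for depth and composition. Setd2 itself was at 41.9 to 63.6 CPM in KPY-Ctrl and 17.9 to 47.4 CPM in KPY-Setd2KO, with overlapping groups (log2 fold change -0.74, standard error 0.22, edgeR adjusted p = 0.175). The summed level of 9 leukocyte genes that hold none of the 9 markers ranged from 527 to 7541 CPM in KPY-Ctrl and, in KPY-Setd2KO, from 257 to 9419 CPM. It was 5415 CPM or more in KPY-Ctrl replicates 1, 2 and 6 and KPY-Setd2KO replicates 1 to 4, and 887 CPM or less in the other 7 tumors. The summed level of 11 epithelial genes ranged from 15095 to 70669 CPM in KPY-Ctrl and, in KPY-Setd2KO, from 6888 to 62509 CPM. In bulk RNA, fewer cells of a type and less RNA per cell cannot be told apart.

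None of the 9 genes passed the thresholds for a difference between the genotypes in edgeR, and the count of calls depended on the tool. With edgeR's quasi-likelihood test, 0 of 9 passed an adjusted p of 0.05 with an absolute log2 fold change over 1, where 0% of all 16836 genes passed. At an unadjusted p under 0.05 there was 1 of 9, Apoe, against 13.7% of all genes in either direction, 6.8% in the lower direction and 6.93% in the higher direction. Without KPY-Ctrl replicate 2 there were 5 of 9, the 3 C1q genes and Cx3cr1 toward higher values in KPY-Setd2KO and Apoe toward lower, where 2393 of 17319 genes had such a p. The CPM ranges of the genotypes overlapped for all 9, so that 0 of 9 were separate, against 0.57% of all genes. The median log2 fold change of the 9 genes was 0.0020 and that of all genes 0.030. DESeq2, the tool of the study, called 2.25% of the 20288 genes it tested and 1 of the 9, again Apoe, and gave no p for C1qa, C1qb and C1qc. With the mean log2 CPM of the leukocyte genes as a covariate, edgeR called 2.11% of genes and 0 of the 9. Limma voom with sample quality weights called 28.1% of genes and 8 of the 9, all but Cx3cr1, and at an unadjusted p under 0.05 it had 57.3% of genes and all 9. In that fit the log2 fold change was 2.77 for Csf1r, 3.34 for Adgre1, 2.74 for Trem2, 2.22 for C1qa, 1.68 for C1qb, 2.44 for C1qc, -1.84 for Apoe and -1.40 for Ly6c2. Without the quality weights limma voom called 0 genes, and 2232 had an unadjusted p under 0.05.

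**Figure D1:**
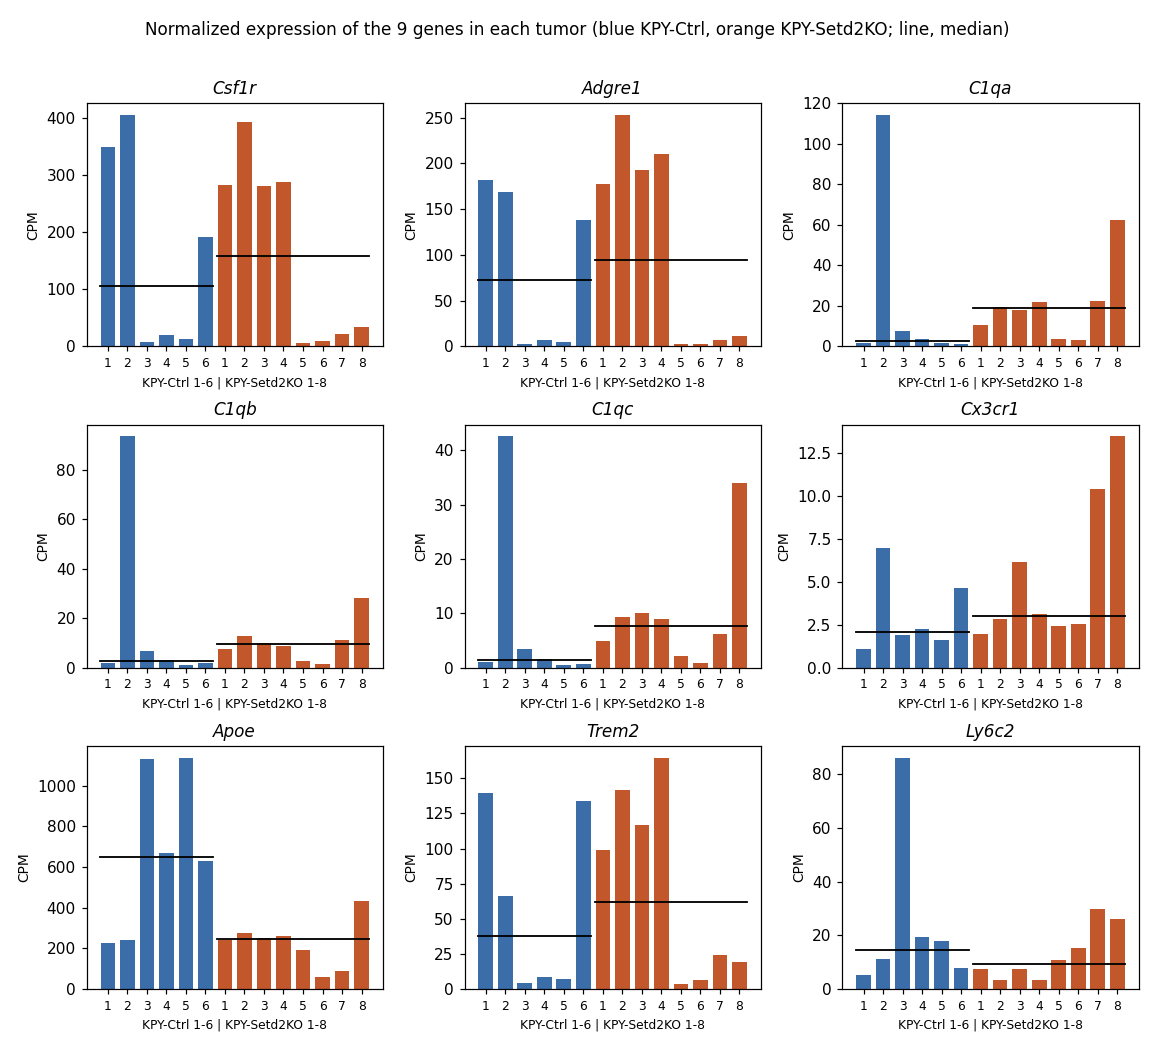
CPM of each of the 9 genes (vertical axes from 0) in each tumor (horizontal axes, by replicate number), KPY-Ctrl in blue and KPY-Setd2KO in orange, with the group median as a line. Csf1r, Adgre1 and Trem2 share 1 pattern over tumors, the C1q genes another with their highest values in KPY-Ctrl replicate 2 and KPY-Setd2KO replicate 8, and Apoe is highest in KPY-Ctrl replicates 3 and 5.

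Although the 9 genes are named for 1 family of cells, they did not vary as a single program. For each of the 36 pairs the SD of the log2 ratio over the 14 tumors was computed, which is 0 for genes in constant proportion. It was under 1 for 6 pairs. Of these, 3 were among Csf1r, Adgre1 and Trem2, with 0.49 for Csf1r and Adgre1, 0.66 for Csf1r and Trem2 and 0.94 for Adgre1 and Trem2. The other 3 were among the C1q chains, with 0.46 for C1qa and C1qc, 0.50 for C1qb and C1qc and 0.58 for C1qa and C1qb. The next pair, C1qb and Cx3cr1, was at 1.32, and the least constant pair, Adgre1 and Ly6c2, at 3.91. Apoe and Ly6c2 had no ratio this steady with any of the other genes, and between them the SD was 1.502.

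**Figure D2:**
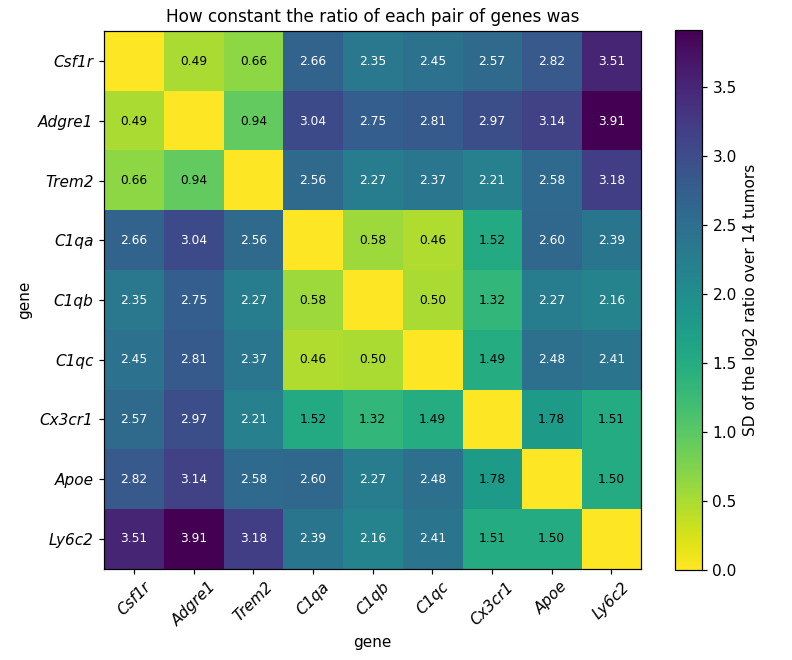
SD over the 14 tumors of the log2 ratio of each pair of the 9 genes (both axes list the genes; color and printed number give the SD, lower meaning a more constant ratio). Csf1r, Adgre1 and Trem2 form a block at 0.49 to 0.94 and the 3 C1q genes a block at 0.46 to 0.58, and the remaining pairs are at 1.32 or more.

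Csf1r (ENSMUSG00000024621.15; GRCm38 chromosome 18, 61100598 to 61132149, forward strand) was at a lowest, median and highest level of 7.86, 105 and 405 CPM in KPY-Ctrl and 5.49, 158 and 393 CPM in KPY-Setd2KO. Levels stood between 191 and 405 CPM in KPY-Ctrl replicates 1, 2 and 6 and KPY-Setd2KO replicates 1 to 4, and between 5.49 and 34.6 CPM in the other 7 tumors, so both genotypes held the full range. These are the same 7 tumors in which the leukocyte sum was high. The means were 164 ± 179 CPM (SD, n = 6) and 164 ± 161 CPM (SD, n = 8), and the log2 fold change was 0.0020 (standard error 1.07, edgeR adjusted p = 1.00). With the leukocyte covariate it was -0.29 (standard error 0.14, adjusted p = 0.214). Of the 75-base windows of the Csf1r transcript, 17.3% also occur in Hmgxb3, which overlaps its end on the opposite strand, and the use of strand in counting is not stated. Hmgxb3 was at 10.1 to 27.2 CPM, of the size of the low Csf1r values, and the split of shared reads in those tumors is uncertain. The genes most like Csf1r by Pearson's r of log2 CPM over the 14 tumors were Fgr, a Src-family kinase of myeloid cells (r = 0.998), Nckap1l, an actin regulator of blood cells (r = 0.996), and P2ry6, a nucleotide receptor (r = 0.996).

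Adgre1 (ENSMUSG00000004730.14; chromosome 17, 57358691 to 57483527, forward strand) was at 2.97, 72.8 and 182 CPM (lowest, median, highest) in KPY-Ctrl and 2.38, 94.2 and 253 CPM in KPY-Setd2KO. The same 7 tumors were high, at 138 to 253 CPM, and the others were at 11.1 CPM or less. The log2 fold change was 0.35 (standard error 1.205, edgeR adjusted p = 0.940). Ptprc, which encodes CD45, was among the 3 genes most like Adgre1 (r = 0.996), with AI504432 (r = 0.996) and the kinase gene Lyn (r = 0.996).

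Trem2 (ENSMUSG00000023992.14; chromosome 17, 48346401 to 48354147, forward strand) was at 4.71, 37.7 and 139 CPM in KPY-Ctrl and 3.73, 61.8 and 165 CPM in KPY-Setd2KO, again as lowest, median and highest. It was high in the same tumors as Csf1r, though not in constant proportion. KPY-Setd2KO replicate 7 was the only tumor with more CPM of Trem2 than of Csf1r, at 24.4 and 21.0 CPM. In KPY-Ctrl replicate 2, the tumor with the highest Csf1r, Trem2 was at 66.6 CPM, below the 99.1 to 165 CPM of the other 6 tumors with high Csf1r. The log2 ratio of Trem2 to Csf1r was -1.19 ± 0.75 in KPY-Ctrl (SD, n = 6) and -0.82 ± 0.59 in KPY-Setd2KO (SD, n = 8), a difference of 0.37 (two-sided exact permutation test over 3003 assignments, p = 0.342, adjusted over the 4 ratios tested 0.685). The log2 fold change of Trem2 itself was 0.26 (standard error 0.94, edgeR adjusted p = 0.941). Its signalling partner Tyrobp ranged from 28.2 to 1209 CPM in KPY-Ctrl and, in KPY-Setd2KO, from 27.9 to 1246 CPM. The genes most like Trem2 were Vav1, a signalling protein of blood cells, the channel gene Trpv2 and the kinase gene Aatk (r = 0.994 each).

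Levels of these 3 receptors were set beside the genes of alveolar macrophages. The sum of 13 alveolar macrophage genes was 17712 CPM or more in the 7 tumors with high Csf1r and 1862 CPM or less in the others, and it ranged from 608 to 38368 CPM in KPY-Ctrl and, in KPY-Setd2KO, from 349 to 63575 CPM. Chil3, which encodes a secreted chitinase-like protein, was the most abundant of them, with 240 to 30082 CPM in KPY-Ctrl and 142 to 52904 CPM in KPY-Setd2KO. Among the 13 genes, 12 were above 0 on the log2 fold change scale, the median was 0.55, and none had an unadjusted p under 0.05. The part of alveolar macrophage RNA in the values of Csf1r, Adgre1 and Trem2 was not tested.

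The growth factors of Csf1r were low. Csf1 was at 0.47 to 5.95 CPM in KPY-Ctrl and 1.82 to 18.8 CPM in KPY-Setd2KO (log2 fold change 1.61, standard error 0.66, edgeR adjusted p = 0.299), and Il34 at 5.06 to 22.2 and 1.45 to 21.2 CPM (log2 fold change -0.31, adjusted p = 0.883). Of 7 genes of this axis, which adds transcription factors such as Spi1, Cebpa, Irf8 and Maf, 0 were called and 2 had an unadjusted p under 0.05, Csf1 and Maf, both toward higher values in KPY-Setd2KO, as 6.93% of all genes were. Maf had a log2 fold change of 1.11 (edgeR adjusted p = 0.216). Spi1, which encodes PU.1, ranged from 5.73 to 297 CPM in KPY-Ctrl and, in KPY-Setd2KO, from 4.78 to 294 CPM, while Cebpa, also an epithelial factor, kept within 184 and 485 CPM in all 14 tumors.

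**Figure D3:**
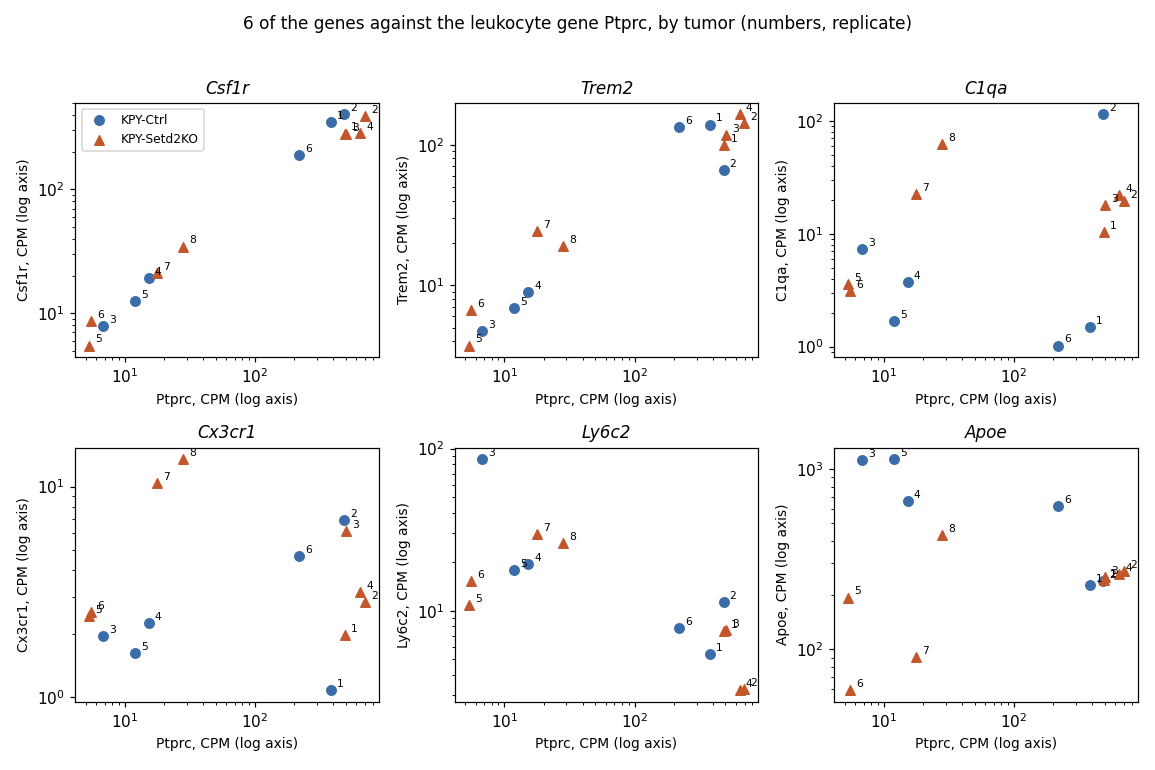
CPM of 6 of the genes (vertical axes, log scale) against CPM of the leukocyte gene Ptprc (horizontal axes, log scale), 1 point per tumor with its replicate number; circles are KPY-Ctrl and triangles KPY-Setd2KO. Csf1r and Trem2 lie along the diagonal in both genotypes, C1qa does not, with 1.48 CPM in KPY-Ctrl replicate 1 and 62.3 CPM in KPY-Setd2KO replicate 8, and Ly6c2 lies lower in the 7 tumors with high Ptprc.

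The C1q chains followed a different order of tumors. C1qa (ENSMUSG00000036887.5), C1qc (ENSMUSG00000036896.5) and C1qb (ENSMUSG00000036905.8) lie side by side on the reverse strand of chromosome 4, from 136895917 to 136898803, 136889804 to 136893065 and 136880129 to 136886187. C1qa was at 1.02, 2.71 and 114 CPM (lowest, median, highest) in KPY-Ctrl and at 3.13, 18.8 and 62.3 CPM in KPY-Setd2KO. The groups overlapped: KPY-Ctrl replicate 2 exceeded every other tumor, the other 5 KPY-Ctrl tumors were at 7.38 CPM or less, and all 8 KPY-Setd2KO tumors were above the KPY-Ctrl median. C1qb was at 1.13, 2.54 and 93.7 CPM in KPY-Ctrl and at 1.69, 9.44 and 28.4 CPM in KPY-Setd2KO. C1qc was at 0.51, 1.36 and 42.6 CPM in KPY-Ctrl and at 0.79, 7.63 and 34.0 CPM in KPY-Setd2KO. All 3 chains were highest in KPY-Ctrl replicate 2, and KPY-Setd2KO replicate 8 came next.

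For C1qa and C1qb the means and the medians pointed in different directions. For C1qa the KPY-Ctrl mean was 21.6 ± 45.5 CPM (SD, n = 6) and the KPY-Setd2KO mean 20.2 ± 18.7 CPM (SD, n = 8), with a log2 fold change of -0.10 (standard error 1.03, edgeR adjusted p = 0.981). The log2 fold change was -0.80 for C1qb (standard error 0.95, adjusted p = 0.790) and 0.20 for C1qc (standard error 1.01, adjusted p = 0.960). Without KPY-Ctrl replicate 2 the KPY-Ctrl mean of C1qa was 3.06 ± 2.63 CPM (SD, n = 5). The log2 fold changes were then 2.71 for C1qa (edgeR unadjusted p = 0.00354, adjusted p = 0.191), 1.79 for C1qb (adjusted p = 0.264) and 2.67 for C1qc (adjusted p = 0.202). None passed the threshold on adjusted p with or without that tumor.

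**Figure D4:**
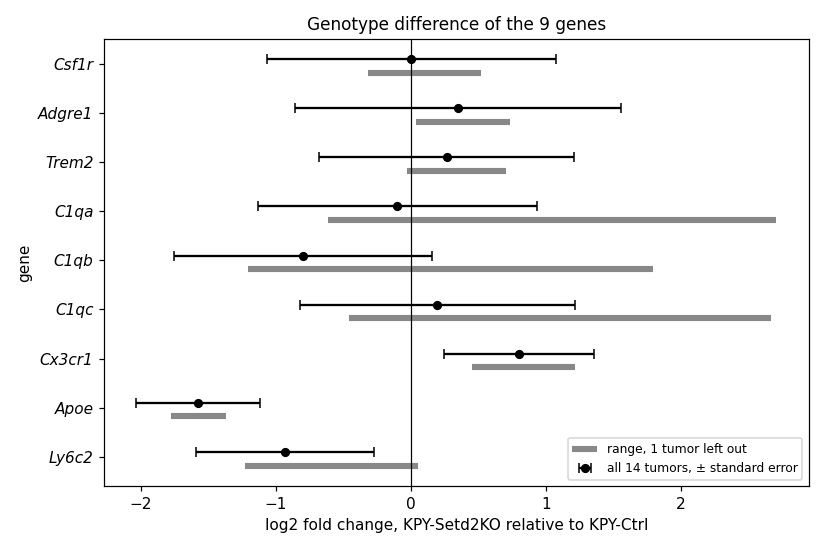
Log2 fold change of each gene in KPY-Setd2KO relative to KPY-Ctrl (horizontal axis; black point, all 14 tumors, with its standard error) and the range of the value when any 1 tumor was left out (grey bar). The C1q genes have the widest grey bars, -0.61 to 2.71 for C1qa, while Apoe stays between -1.78 and -1.37.

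Relative to Csf1r, C1q RNA differed by orders of magnitude between tumors. The log2 ratio of C1qa to Csf1r in KPY-Ctrl replicates 1 to 6 was -7.83, -1.82, -0.089, -2.35, -2.88 and -7.47. In KPY-Setd2KO replicates 1 to 8 it was -4.77, -4.33, -3.96, -3.70, -0.62, -1.45, 0.086 and 0.85. Both genotypes held ratios near 0, and among the 7 tumors with high Csf1r the ratio was highest in KPY-Ctrl replicate 2 and lowest in KPY-Ctrl replicates 1 and 6. The ratios near 0 were all in tumors with low Csf1r, where reads shared with Hmgxb3 make the Csf1r level uncertain. The log2 ratio of C1qa to Marco, a scavenger receptor gene of alveolar macrophages, was -3.90 ± 3.61 in KPY-Ctrl (SD, n = 6) and -3.36 ± 2.73 in KPY-Setd2KO (SD, n = 8), and the difference of 0.55 did not pass an exact permutation test (p = 0.7502, adjusted 0.7502).

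The genes most like the C1q genes were weakly expressed in most tumors. Aif1, which encodes the macrophage protein IBA1, had r = 0.890 with C1qa and ranged from 0.16 to 3.52 CPM. Cd72, a surface receptor gene of B cells and macrophages, had r = 0.917 with C1qc and ranged from 0.10 to 2.31 CPM. Cmklr1, the chemerin receptor gene, had r = 0.870 with C1qa, and Mgl2, a lectin gene of macrophages and dendritic cells, r = 0.838 with C1qc. Both reached their highest level in KPY-Ctrl replicate 2, with 7.87 CPM for Cmklr1 and 50.7 CPM for Mgl2.

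Of 9 genes for proteins that act with C1q, 0 were called and 4 had an unadjusted p under 0.05, all toward higher values in KPY-Setd2KO, as 6.93% of all genes were, with a median log2 fold change of 0.74 over the list. C1s1, a protease of the C1 complex, had a median of 4.51 CPM in KPY-Ctrl, where it reached 9.58 CPM, and of 10.1 CPM in KPY-Setd2KO, where it reached 78.9 CPM (log2 fold change 1.93, standard error 0.64, edgeR adjusted p = 0.214), with its highest value in KPY-Setd2KO replicate 7. C2 and C4b, whose products C1s cleaves, had log2 fold changes of 2.20 (adjusted p = 0.208) and 2.14 (adjusted p = 0.279). Both were highest in KPY-Setd2KO replicate 2, at 20.1 CPM for C2 and 215 CPM for C4b. Calr, a chaperone gene whose product binds C1q, had 0.55 (adjusted p = 0.363). C3 had 0.74 (adjusted p = 0.439), C1ra 0.49 (adjusted p = 0.541), the inhibitor gene Serping1 0.55 (adjusted p = 0.736), Cd93 0.85 (adjusted p = 0.823) and C1qbp -0.016 (adjusted p = 0.981).

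Cx3cr1 (ENSMUSG00000052336.7; chromosome 9, 119901616 to 120069879, reverse strand) was weakly expressed in every tumor. It was at 1.07, 2.09 and 6.96 CPM (lowest, median, highest) in KPY-Ctrl and at 1.97, 3.00 and 13.5 CPM in KPY-Setd2KO, from 45 to 353 estimated counts. The highest levels were those of KPY-Setd2KO replicates 8 and 7, at 13.5 and 10.4 CPM, and the groups overlapped. The log2 fold change was 0.80 (standard error 0.56, edgeR unadjusted p = 0.171, adjusted p = 0.578). Its ligand gene Cx3cl1 was at 28.4 to 56.2 CPM in KPY-Ctrl and 26.7 to 100 CPM in KPY-Setd2KO (log2 fold change 0.43). The log2 ratio of Cx3cr1 to Csf1r was -4.58 ± 2.34 in KPY-Ctrl (SD, n = 6) and -3.93 ± 2.85 in KPY-Setd2KO (SD, n = 8), a difference of 0.65 that did not pass an exact permutation test (p = 0.642, adjusted 0.7502). The genes most like Cx3cr1 were Rgs7bp (r = 0.865), Gm3272 (r = 0.831) and Gm28900 (r = 0.827).

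Apoe (ENSMUSG00000002985.16; chromosome 7, 19696109 to 19699188, reverse strand) was the most strongly expressed of the 9 genes and the one with the smallest p. It was at 228, 649 and 1139 CPM (lowest, median, highest) in KPY-Ctrl and at 59.3, 248 and 432 CPM in KPY-Setd2KO. In KPY-Ctrl, 4 of 6 tumors exceeded every KPY-Setd2KO tumor, and the other 2, replicates 1 and 2 at 228 and 240 CPM, lay within the KPY-Setd2KO range. The means were 673 ± 403 CPM (SD, n = 6) and 226 ± 116 CPM (SD, n = 8). The log2 fold change was -1.57 (standard error 0.46), and edgeR gave an unadjusted p of 0.00395 and an adjusted p of 0.165, which did not pass. It passed in DESeq2, with -1.59 and an adjusted p of 0.0320, and did not pass with the leukocyte covariate in edgeR, with -1.43 and an adjusted p of 0.0923.

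The levels of Apoe did not follow those of the leukocyte genes. The 3 KPY-Ctrl tumors with low leukocyte sums, replicates 3, 4 and 5, had 1131, 670 and 1139 CPM of Apoe, and their epithelial sums were 70669, 43486 and 51613 CPM. In KPY-Setd2KO replicates 5 to 8, also with low leukocyte sums, the epithelial sums were 23751, 33231, 62509 and 47674 CPM. Apoe was at 194, 59.3, 90.3 and 432 CPM in these tumors, in the same order. In the 4 KPY-Setd2KO tumors with high leukocyte sums Apoe kept within 243 and 274 CPM, near KPY-Ctrl replicates 1 and 2 (228 and 240 CPM) and below KPY-Ctrl replicate 6 (628 CPM), whose leukocyte sums were also high. In the other 4 KPY-Setd2KO tumors it ranged from 59.3 to 432 CPM. The part of epithelial or leukocyte RNA in the Apoe difference was not tested beyond the leukocyte covariate. The genes most like Apoe were Atp6v0a1, a subunit of the proton pump of lysosomes (r = 0.917), the acyl-CoA oxidase-like gene Acoxl (r = 0.916) and Gemin4 (r = 0.910).

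Of 14 genes around Trem2 and Apoe, 0 were called and 3 had an unadjusted p under 0.05, all toward lower values in KPY-Setd2KO, as 6.8% of all genes were, with a median log2 fold change of -0.030 over the list. These 3, named after their values were seen, were Apoc1, Apoc2 and the lipid exporter gene Abca1. Apoc1 and Apoc2, which encode further apolipoproteins, lie beside Apoe on the reverse strand of chromosome 7, from 19689481 to 19692660 and from 19671579 to 19677941. Apoc1 was at 41.1, 104 and 126 CPM in KPY-Ctrl and 2.10, 22.5 and 41.5 CPM in KPY-Setd2KO (lowest, median, highest; log2 fold change -2.09, standard error 0.58, edgeR adjusted p = 0.156). Only KPY-Setd2KO replicate 1 and KPY-Ctrl replicate 1 overlapped, at 41.5 and 41.1 CPM. Apoc2 was at 1.34 to 9.97 CPM and 0.52 to 4.02 CPM (log2 fold change -1.56, adjusted p = 0.251), and Abca1 had -0.90 (standard error 0.26, adjusted p = 0.162). The most abundant genes of this list were the tetraspanin gene Cd9, the lipase gene Lpl and Spp1, which encodes osteopontin, with log2 fold changes of -0.029, 0.36 and 0.82 and adjusted p of 0.987, 0.929 and 0.595.

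**Figure D5:**
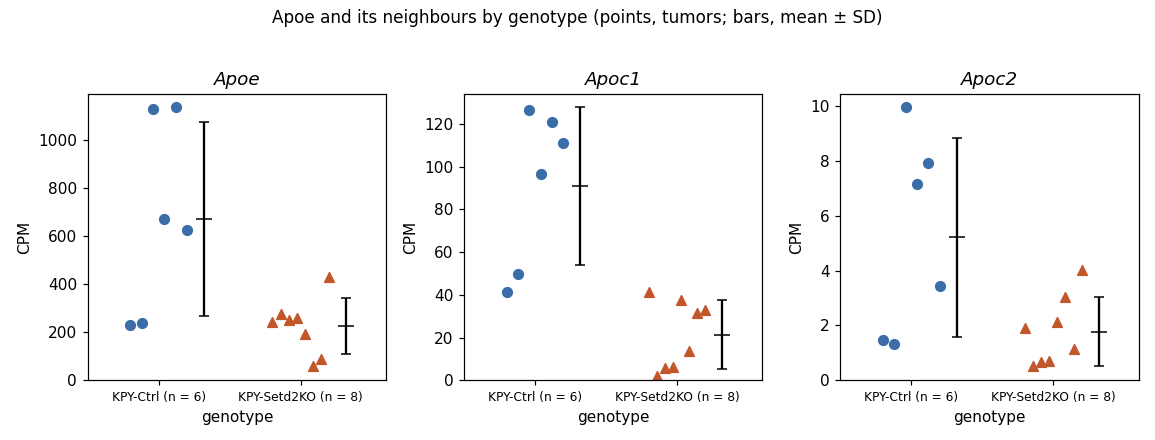
CPM (vertical axes, from 0) of Apoe and its neighbours Apoc1 and Apoc2 in the 6 KPY-Ctrl (circles) and 8 KPY-Setd2KO tumors (triangles), with mean and SD beside them. For Apoe and Apoc2 the lowest KPY-Ctrl tumors are among the KPY-Setd2KO tumors, and for Apoc1 the groups meet at 41.1 and 41.5 CPM.

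Ly6c2 (ENSMUSG00000022584.14; chromosome 15, 75108158 to 75111970, reverse strand) was at 5.42, 14.5 and 86.2 CPM (lowest, median, highest) in KPY-Ctrl and at 3.22, 9.21 and 29.8 CPM in KPY-Setd2KO. The highest tumor by far was KPY-Ctrl replicate 3, the other 13 were at 29.8 CPM or less, and the groups overlapped. The log2 fold change was -0.93 (standard error 0.66, edgeR unadjusted p = 0.178, adjusted p = 0.587), and 0.050 without KPY-Ctrl replicate 3. Ly6c2 was at 11.2 CPM or less in the 7 tumors with high leukocyte sums and at 10.8 CPM or more in the other 7, unlike Csf1r. Of the 75-base windows of its transcript, 21.9% also occur in its neighbour Ly6c1, so the split of reads between them is uncertain. Ly6c1 was at 22.0 to 202 CPM in KPY-Ctrl and 22.3 to 215 CPM in KPY-Setd2KO.

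The genes most like Ly6c2 were Ttc36 (r = 0.973), Pck2, a mitochondrial carboxykinase gene (r = 0.967), and Gcat, a gene of glycine and threonine metabolism (r = 0.960). Among other monocyte genes, Plac8 was also highest in KPY-Ctrl replicate 3, at 26.1 CPM, and at 3.14 CPM or less in the 7 tumors with high leukocyte sums, but it was at 1.25 CPM in KPY-Setd2KO replicate 7, where Ly6c2 was at 29.8 CPM. Ccr2, the chemokine receptor of classical monocytes, was at 7.95 CPM or less in 13 tumors and at 71.9 CPM in KPY-Ctrl replicate 2, where Ly6c2 was at 11.2 CPM. In KPY-Ctrl replicate 3, with the highest Ly6c2, Ccr2 was at 0.43 CPM. Of 9 further monocyte genes, 0 were called, and 2 had an unadjusted p under 0.05, F13a1 toward higher values in KPY-Setd2KO and Vcan toward lower, against 13.7% of all genes in either direction. Ms4a4c, also a monocyte gene, did not exceed 1.34 CPM in any tumor.

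In the Ly6 family, 5 of 6 listed genes passed the filter, 0 were called and 3 had an unadjusted p under 0.05, all toward higher values in KPY-Setd2KO, as 6.93% of all genes were, and so opposite in sign to Ly6c2. Ly6e was at 411 to 645 CPM in KPY-Ctrl and 698 to 1200 CPM in KPY-Setd2KO, without overlap (log2 fold change 0.94, standard error 0.18, edgeR adjusted p = 0.116). Ly6a, which encodes Sca-1, was at 10.9 to 26.2 and 18.2 to 243 CPM (log2 fold change 2.24, standard error 0.63, adjusted p = 0.157), and Ly6i at 0.27 to 5.16 and 0.96 to 45.3 CPM (log2 fold change 2.89, adjusted p = 0.214). Ly6c1 had a log2 fold change of 0.31 (adjusted p = 0.878) and Ly6d one of -0.58 (adjusted p = 0.816). Ly6g did not pass the filter.

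The log2 ratio of Ly6c2 to C1qa was also compared. Ly6c2 was mostly lower in the tumors with high leukocyte sums, so the ratio is given as one of these genes and not of monocytes to macrophages. In KPY-Ctrl the values for replicates 1 to 6 were 1.83, -3.34, 3.54, 2.36, 3.37 and 2.87. In KPY-Setd2KO those for replicates 1 to 8 were -0.46, -2.55, -1.24, -2.75, 1.59, 2.26, 0.42 and -1.25. The groups overlapped, with KPY-Ctrl replicate 2 below all others and the remaining KPY-Ctrl tumors at 1.83 or more. The means were 1.77 ± 2.58 (SD, n = 6) and -0.50 ± 1.82 (SD, n = 8), and the difference of -2.27 did not pass a two-sided exact permutation test (p = 0.0783, adjusted over 4 ratios 0.313). Without KPY-Ctrl replicate 2 the difference was -3.29 (exact permutation test, p = 0.00466, adjusted 0.0187), the only one of the 14 omissions to take it past the threshold. 

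Among 18 further genes used for interstitial macrophages, 16 passed the filter, and Folr2 and Cd163, which mark resident tissue macrophages, did not. None was called, and 2 had an unadjusted p under 0.05, Maf toward higher and Pf4 toward lower values in KPY-Setd2KO, against 13.7% of all genes. The most abundant were Mrc1, the mannose receptor gene (19.5 to 1367 CPM in KPY-Ctrl and 28.5 to 2583 CPM in KPY-Setd2KO), the lysosomal gene Cd68 (23.2 to 637 and 19.6 to 921 CPM) and the Fc receptor gene Fcgr3 (14.4 to 671 and 10.7 to 639 CPM). Their log2 fold changes were 0.70, 0.34 and -0.006, with edgeR adjusted p of 0.869, 0.928 and 0.999.

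Levels between genes were compared per kilobase of the principal transcript, as mean CPM per kb over the 14 tumors. The order was Apoe at 296 ± 249, Trem2 at 61.5 ± 57.6, Csf1r at 34.9 ± 34.5, Adgre1 at 29.98 ± 30.4, Ly6c2 at 21.8 ± 25.9, C1qa at 19.98 ± 30.2, C1qb at 12.6 ± 22.2, C1qc at 7.51 ± 10.8 and Cx3cr1 at 0.98 ± 0.82 (SD, n = 14). Apoe exceeded Trem2 in 14 of 14 tumors, and Trem2 exceeded Csf1r in 13. Adgre1 exceeded Ly6c2 in 7 of 14 tumors and Ly6c2 exceeded C1qa in 8, so these neighbours had no steady order. Each mean exceeded the next by less than its own SD.

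The spread between tumors was wide for most of the 9. Adgre1 had an SD of log2 CPM of 2.84 over the 14 tumors, which 0.77% of all genes tested reached, and Csf1r one of 2.45, which 2.06% reached. The SD was 2.10 for Trem2, 2.04 for C1qa, 1.97 for C1qc and 1.76 for C1qb, and the median of all genes was 0.69. Ly6c2, Apoe and Cx3cr1 varied less, with 1.28, 1.22 and 1.04. The highest tumor exceeded the lowest by 112-fold for C1qa, 106-fold for Adgre1 and 73.8-fold for Csf1r, against 19.2-fold for Apoe and 12.6-fold for Cx3cr1.

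Genes of other blood and stromal cells had these levels. The sum of 5 neutrophil genes was 4.17 to 38.6 CPM in KPY-Ctrl and 18.2 to 61.6 CPM in KPY-Setd2KO, with 3 of 5 at an unadjusted p under 0.05 toward higher values in KPY-Setd2KO, as 6.93% of all genes were, and 0 called. The sum of 5 T cell genes did not exceed 7.14 CPM in any tumor, the sum of 3 dendritic cell genes (Batf3, Zbtb46 and Ccr7) did not exceed 11.4 CPM, and the B cell gene Cd79b was at 1.36 to 13.6 CPM. The B cell genes Cd79a and Ms4a1 and the dendritic cell genes Flt3, Cd209a, Xcr1 and Clec9a did not pass the filter. The sum of 5 fibroblast genes was 2.79 to 85.7 CPM in KPY-Ctrl (median 10.2) and 7.49 to 28.7 CPM in KPY-Setd2KO (median 16.2). The value of 85.7 CPM was that of KPY-Ctrl replicate 2, the tumor with the highest C1q levels. The sum of 5 endothelial genes was 9.15 to 27.8 CPM in KPY-Ctrl and 16.4 to 50.9 CPM in KPY-Setd2KO. The part of these cells in the values of the 9 genes was not tested.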

How the data were processed

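The data were RNA-seq of 14 tumors. Estimated counts by Ensembl gene, deposited by the authors, were whole numbers made with Salmon 0.8.2 against GRCm38.p5, with no normalization. The 9 markers and all gene lists were chosen with earlier results of these data known. Of 52550 gene identifiers, 52403 were paired with a symbol through the GENCODE annotation of GRCm38. The model of genotype used edgeR 4.0.16 under R 4.3.3 (TMM, filterByExpr, robust quasi-likelihood test, Benjamini-Hochberg adjustment over all genes tested). A call needed both an absolute log2 fold change over 1 and an adjusted p under 0.05. Log2 CPM used a prior count of 2. Alternatives used DESeq2 1.42.0, limma 3.58.1, other scalings and filters, a replicate block, a leukocyte covariate and omission of each tumor. The procedure was run on simulated data, with a pass mark only at a fixed dispersion not taken from these tumors. That run does not measure the power to detect a difference at their spread. Of 91 pairs of columns, 0 were identical.

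The text names the 9 genes, every gene of the lists around Csf1r, C1q, Cx3cr1 and Ly6, the 3 most abundant genes of other lists and the 3 genes most like each marker, and others as stated. The genes Ccr2, Plac8, Cd79b, Batf3, Zbtb46, Ccr7, F13a1, Ms4a4c, Pf4, Arg1, Vcan, Itgam and those that did not pass the filter were named after their values were seen. Not every gene that the rule names is reported here. Likeness was by Pearson's r of log2 CPM, which does not require a constant ratio. The SD of the log2 ratio of marker and gene ran from 0.17 (Csf1r and Fgr) to 1.16 (C1qc and Mgl2). For Apoe and Atp6v0a1 it was 0.94. The depth gives precise estimates for most of the 9 genes, and the spread between tumors limits the comparisons. Labels do not say which tumors share a mouse. The tests took tumors to be independent, so their p-values do not allow for tumors of the same mouse.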

Additional observations from a re-analysis of the deposited data

Results flagged for a closer look

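The log2 ratio of Ly6c2 to C1qa in KPY-Ctrl replicate 2 was -3.34, while the other 5 KPY-Ctrl tumors lay between 1.83 and 3.54. The gap of this tumor to the nearest other was 0.753 of the range of the group, above Dixon's critical value of 0.625 for 6 tumors. Of 26 groups of values examined this way, 1 stood out, and chance alone gives about 1 in 20.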

How the results depend on the processing

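Of the 9 genes, edgeR called 0 and DESeq2 1 (Apoe). Limma voom using quality weights called 8, all but Cx3cr1, and 4732 genes in all. It also gave 9 genes with an unadjusted p under 0.05, against 1, where 9653 of 16836 genes had one. The cause was not tested. The sign of Csf1r turned with library size only (-0.14, where the median of all genes moved from 0.030 to -0.11), with no filter (-0.018) and with the leukocyte covariate (-0.29), and that of Adgre1 with the covariate (-0.22). C1qa turned with limma voom with quality weights (2.22) and without (1.56), with the replicate block (1.32) and with the covariate (0.41). C1qb turned with limma voom with quality weights (1.68) and without (0.70) and with the replicate block (0.50).

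With 1 tumor left out, the called count stayed at 0 and the count at an unadjusted p under 0.05 was 1 to 5. It was 5 when KPY-Ctrl replicate 2 was omitted (the 3 C1q genes, Cx3cr1 and Apoe). Log2 fold changes then ranged from -0.32 to 0.52 for Csf1r, -0.61 to 2.71 for C1qa, -1.21 to 1.79 for C1qb, -0.46 to 2.67 for C1qc, -0.027 to 0.71 for Trem2 and -1.23 to 0.050 for Ly6c2. Those of Adgre1 (0.037 to 0.73), Cx3cr1 (0.45 to 1.22) and Apoe (-1.78 to -1.37) kept their sign. Log2 ratio differences ranged from -3.29 to -1.92 for Ly6c2 to C1qa, from -0.52 to 1.26 for C1qa to Marco (negative without KPY-Ctrl replicate 1 or 6), from 0.086 to 0.50 for Trem2 to Csf1r and from -0.093 to 1.16 for Cx3cr1 to Csf1r (negative without KPY-Ctrl replicate 1).

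Deviations of same-numbered tumors had correlations of 0.522, 0.602 and 0.657 for replicates 1, 2 and 5. For replicates 3, 4 and 6 they were -0.483, -0.664 and -0.355. They were positive where both tumors had high or both had low leukocyte sums, and negative elsewhere. These values therefore cannot show whether tumors were paired, and tumors were not taken as paired by number. With the replicate block, 0 genes were called and 1909 had an unadjusted p under 0.05, against 2311. Depth limits Cx3cr1 and the C1q genes most, with as few as 17 counts for C1qc.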

Other observations

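KPY-Ctrl replicate 2, the tumor with the highest C1q levels, was also the highest for several other myeloid genes, which were picked after their values were seen. Arg1, the arginase gene of activated macrophages, was at 142 CPM there and at 14.5 CPM or less in the other 13 tumors. Itgam, which encodes CD11b, was at 34.6 CPM there and at 19.8 CPM or less elsewhere, and Ccr2 at 71.9 CPM against 7.95 CPM or less. Other genes of the same lists were not highest in this tumor. Mrc1 was at 1367 CPM there and 2583 CPM in KPY-Setd2KO replicate 2, and Mertk at 124 and 393 CPM. Fcgr1 was at 41.5 CPM there and 88.5 CPM in KPY-Setd2KO replicate 4.

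Pf4, a chemokine gene of platelets and some macrophages, was at 36.5 to 78.7 CPM in KPY-Ctrl and 4.97 to 43.0 CPM in KPY-Setd2KO (log2 fold change -1.64, standard error 0.40, edgeR adjusted p = 0.129), so it did not pass. Vcan, which encodes a matrix proteoglycan, was at 13.3 to 90.8 and 0.19 to 38.2 CPM (log2 fold change -1.79, standard error 0.83, adjusted p = 0.361).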
